A study of Mus musculus with 20 samples.

Results

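The genes described here are 9 genes that mark B cells: Ms4a1, Cd79a, Cd79b, Ighd, Cr2, Fcer2a, Pax5, Blnk and Cd22. They were listed by name with no threshold on a measured value, although earlier results of these data were known, and all 9 were found among the 35204 genes of the deposited table of estimated counts. Each also passed the filter that left 16306 genes for testing, which kept a gene that reached 0.5 CPM (counts-per-million of the mouse's total) in 1 or more mice.

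The study asked how a diet without tryptophan acts on the intestine when the microbiota is intact or depleted. RNA was taken from the terminal ileum of 20 female C57Bl6 mice, 5 in each of 4 groups, all 7 weeks old when the diets began and kept on diet for 3 weeks. CD mice ate control diet and TDD mice the tryptophan-deficient diet, and both kept the microbiota of specific-pathogen-free (SPF) housing. CD+ABX and TDD+ABX mice ate the same 2 diets and also received antibiotics (ABX), namely neomycin, metronidizole, gentamycin, vancomycin and ampicillin. No group carried an engineered allele. Cages are not given in the sources used here, so the p-values below measure the spread between single mice.

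Total counts ranged from 36676963 to 58662617 per mouse. The epithelial gene Vil1 was at 2491 to 5132 CPM in every mouse. The genes of bile acid uptake that define the distal ileum were low without ABX, with Fabp6 at 0.238 to 3.91 CPM and Slc10a2 at 1.38 to 8.80 CPM in the 10 SPF mice. With ABX they were at 2.65 to 144 CPM and 13.2 to 86.1 CPM. Their part in the results below was not tested.

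B cells make antibodies, and in the small intestine they gather in Peyer's patches and in smaller isolated lymphoid follicles. A B cell detects antigen with a surface immunoglobulin that signals through an attached pair of chains, and its signal is tuned by co-receptors that raise or damp it. When a B cell becomes a plasma cell it loses much of this equipment and turns to secreting antibody. The genes below are thus read as genes of B cells more than of the IgA plasma cells that fill the ileal lamina propria, although a part from plasma cells was not excluded. Which cells of the ileum held their RNA was not measured. In a bulk sample of tissue, fewer B cells and less RNA per B cell cannot be told apart.

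By role, Ighd is the constant region of IgD, the surface immunoglobulin of naive B cells (ENSMUSG00000104213.5, chromosome 12, 113406604 to 113416324, minus strand). Positions here are from GENCODE M21 (GRCm38). Cd79a (ENSMUSG00000003379.7, chromosome 7, 24897381 to 24902197, plus strand) and Cd79b (ENSMUSG00000040592.11, chromosome 11, 106311341 to 106314762, minus strand) are the pair of signalling chains of the receptor. Blnk (ENSMUSG00000061132.13, chromosome 19, 40928927 to 40994535, minus strand) is the linker that carries the signal inward. Cr2 (ENSMUSG00000026616.15, chromosome 1, 195136811 to 195176716, minus strand), the complement receptor, raises the signal, whereas Cd22 (ENSMUSG00000030577.14, chromosome 7, 30865402 to 30880342, minus strand) damps it. Ms4a1 (ENSMUSG00000024673.9, chromosome 19, 11249675 to 11266241, minus strand) encodes CD20, and Fcer2a (ENSMUSG00000005540.10, chromosome 8, 3681737 to 3694175, minus strand) the low-affinity IgE receptor CD23. Pax5 (ENSMUSG00000014030.15, chromosome 4, 44524757 to 44710487, minus strand) is the transcription factor that commits a cell to the B lineage.

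Sequences before the starts of these genes are shown because 8 of them varied together between mice and Blnk much less so. RefSeq windows on GRCm38.p6, each from 250 bases before to 50 after a transcript start, were matched for 6 members, namely Cr2, Pax5, Cd79a, Cd22, Fcer2a and Blnk. These came to 8 windows, 3 of them for Fcer2a. The 250 bases before the start of Pax5 (chr4:44710695-44710944, minus strand) and of Cr2 (chr1:195176720-195176969, minus strand), the members whose levels differed most between mice, overlapped no exon of these genes in GENCODE M21.
Pax5: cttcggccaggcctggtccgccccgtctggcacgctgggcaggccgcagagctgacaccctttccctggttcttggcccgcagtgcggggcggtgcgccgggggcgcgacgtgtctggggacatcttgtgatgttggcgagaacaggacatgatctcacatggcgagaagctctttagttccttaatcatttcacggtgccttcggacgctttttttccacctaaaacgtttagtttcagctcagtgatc
Cr2: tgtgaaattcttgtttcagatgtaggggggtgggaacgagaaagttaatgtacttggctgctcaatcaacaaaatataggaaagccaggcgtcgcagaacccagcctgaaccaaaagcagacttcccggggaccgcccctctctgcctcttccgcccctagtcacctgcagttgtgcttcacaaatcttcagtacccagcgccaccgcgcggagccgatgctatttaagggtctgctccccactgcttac

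Motifs of 4 classes of B cell regulators were searched on both strands: the octamer ATGCAAAT, the palindrome TCCCNNGGGA bound by EBF1, the PU.1 motif GAGGAAGT and the E-box CAGCTG. No motif overlapped another in the members' windows. Neither the Pax5 nor the Cr2 window held one of these strings. The Cd22 window held the EBF1 string 49 bases before the start, in a part outside the exons of Cd22 (chr7:30879058-30879087, minus strand). The Blnk window held the octamer, on the other strand, 130 bases before the RefSeq start and within the longer first exon of GENCODE (chr19:40994333-40994362, minus strand). Each site is shown with its flanks, 30 bases in all and the motif in capitals.
Cd22: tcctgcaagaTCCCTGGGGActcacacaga
Blnk: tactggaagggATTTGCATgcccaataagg

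One of the Fcer2a windows held the E-box, and none of the 8 held the PU.1 string. Of all 32851 RefSeq windows of this length, 1.74% held the octamer, 0.904% the EBF1 string, 3.20% the PU.1 string and 16.3% the E-box. These are matches of letters in short windows, and binding was not measured.

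Levels are given as CPM scaled by the trimmed mean of M-values (TMM), a correction for differences in library composition. Ms4a1 was at 0.331, 9.82, 16.0, 0.321 and 0.274 CPM in CD mice 1 to 5, and at 0.226, 17.0, 10.8, 22.7 and 19.3 CPM in TDD mice 1 to 5. In CD+ABX mice it was at 0.309, 0.743, 0.246, 0.350 and 0.566 CPM, and in TDD+ABX mice at 1.38, 3.70, 0.579, 0.239 and 14.5 CPM. CD mice 2 and 3, TDD mice 2 to 5 and TDD+ABX mouse 5 were therefore high and no CD+ABX mouse was. The high mice spanned 3 groups, and the other mice of those groups were in or just below the range of the CD+ABX mice or, for TDD+ABX mice 1 and 2, between.

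The same 7 mice held the 7 highest values of all 9 members. Over all genes tested, 212 of 16306 (1.30%) had these same 7 mice on top. TDD mouse 4 was the highest of the 20 mice for 9 of 9 members. CD mouse 3 was the highest CD mouse, TDD mouse 1 the lowest TDD mouse and TDD+ABX mouse 5 the highest TDD+ABX mouse for 9 of 9 members as well. TDD+ABX mouse 2 came eighth for 8 of the 9. In the heat map, high levels lie in columns of single mice within 3 of the 4 groups.

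**Figure D1:**
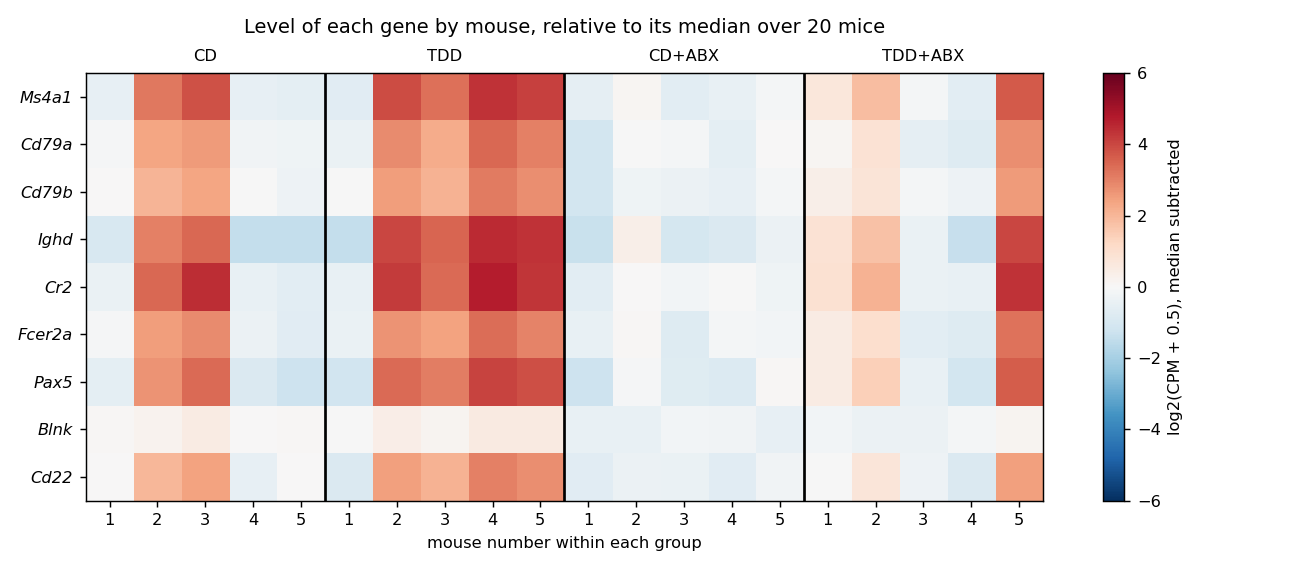
Heat map of the 9 genes (rows) in the 20 mice (columns, grouped as CD, TDD, CD+ABX and TDD+ABX, with the mouse number within its group below), colour giving log2(CPM + 0.5) minus the gene's median over all mice. CD mice 2 and 3, TDD mice 2 to 5 and TDD+ABX mouse 5 are red in 8 rows, and the row of Blnk is nearly white throughout.

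The receptor's signalling chains followed this order closely. Cd79a was at 2.76, 17.1, 19.7, 2.45 and 2.36 CPM in CD mice 1 to 5 and at 2.11, 24.3, 15.8, 37.2 and 27.2 CPM in TDD mice 1 to 5. With ABX, it was at 1.12, 2.95, 2.72, 1.77 and 2.96 CPM in the CD mice and at 3.31, 5.81, 1.86, 1.55 and 23.4 CPM in the TDD mice. The lowest TDD mouse thus lay below every CD mouse, and the highest TDD+ABX mouse lay above every CD mouse.

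Cd79b, its partner, was at 1.87, 9.10, 11.8, 1.86 and 1.43 CPM in CD mice and at 1.81, 12.9, 9.61, 19.98 and 15.9 CPM in TDD mice. It was at 0.617, 1.46, 1.37, 1.17 and 1.66 CPM in CD+ABX mice and at 2.50, 3.60, 1.65, 1.41 and 13.6 CPM in TDD+ABX mice. The ratio of Cd79b to Cd79a was nearly fixed, with a standard deviation (SD) of 0.27 on the log2 scale over the 20 mice, where Cd79b itself had an SD of 1.56.

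Ighd had the highest CPM of the 9 in its highest mouse. It was at 0.551, 16.1, 21.9, 0.252 and 0.253 CPM in CD mice and at 0.251, 32.7, 22.8, 45.4 and 40.3 CPM in TDD mice. It was at 0.309, 2.09, 0.491, 0.642 and 1.13 CPM in CD+ABX mice and at 3.24, 6.41, 1.05, 0.299 and 32.8 CPM in TDD+ABX mice. TDD mouse 1 and TDD mouse 4, on the same diet, differed 181-fold, from 10 to 1650 counts.

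The co-receptors Cr2 and Cd22 showed the same mice on top with unlike depth below them. Cr2 was at 0.193, 9.42, 19.3, 0.161 and 0.0842 CPM in CD mice and at 0.176, 16.1, 9.22, 23.4 and 17.0 CPM in TDD mice, and in the same order with ABX at 0.0882, 0.432, 0.307, 0.389 and 0.264 CPM and at 1.24, 3.42, 0.186, 0.179 and 18.0 CPM. Cd22 was at 3.97, 17.0, 23.0, 2.59 and 3.87 CPM in CD mice and at 1.86, 23.5, 18.0, 35.5 and 29.9 CPM in TDD mice, and with ABX at 2.21, 2.90, 2.81, 2.20 and 3.28 CPM and at 3.86, 6.73, 2.998, 1.87 and 23.3 CPM. The highest mouse exceeded the lowest 278-fold for Cr2, whose lowest mice had 4 counts, and 19.1-fold for Cd22.

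Fcer2a was at 1.02, 8.61, 11.1, 0.757 and 0.526 CPM in CD mice and at 0.728, 9.83, 8.02, 15.8 and 12.4 CPM in TDD mice. It was at 0.684, 1.22, 0.450, 1.01 and 0.924 CPM in CD+ABX mice and at 1.78, 2.74, 0.538, 0.458 and 14.8 CPM in TDD+ABX mice. The highest mouse was 35.1-fold above the lowest, close to the 33.1-fold of Cd79a and the 32.4-fold of Cd79b.

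Pax5 was at 0.303, 7.44, 12.3, 0.161 and 0.0211 CPM in CD mice and at 0.0502, 12.3, 9.65, 19.5 and 17.2 CPM in TDD mice. It was at 0.0221, 0.647, 0.225, 0.195 and 0.792 CPM in CD+ABX mice and at 1.20, 2.80, 0.393, 0.0597 and 14.8 CPM in TDD+ABX mice. CD mouse 5 and CD+ABX mouse 1 had 1 count each, TDD mouse 1 had 2 and TDD+ABX mouse 4 had 3, so that the transcription factor of B cell commitment was at or near the detection limit in mice of all 4 groups at this depth. The highest mouse had 1009 counts.

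Blnk stood apart from the other 8 members. It was at 13.7, 15.2, 18.9, 13.4 and 14.0 CPM in CD mice and at 13.1, 17.7, 15.2, 19.8 and 19.5 CPM in TDD mice. It was at 9.77, 9.76, 11.9, 11.4 and 9.17 CPM in CD+ABX mice and at 11.8, 10.4, 10.3, 12.0 and 14.7 CPM in TDD+ABX mice. Its highest mouse exceeded its lowest 2.16-fold, although the mice on top were the same 7. CD mouse 5 and CD+ABX mouse 1, with 1 count of Pax5 each, had 663 and 443 counts of Blnk. Which cells held this Blnk RNA was not tested.

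**Figure D2:**
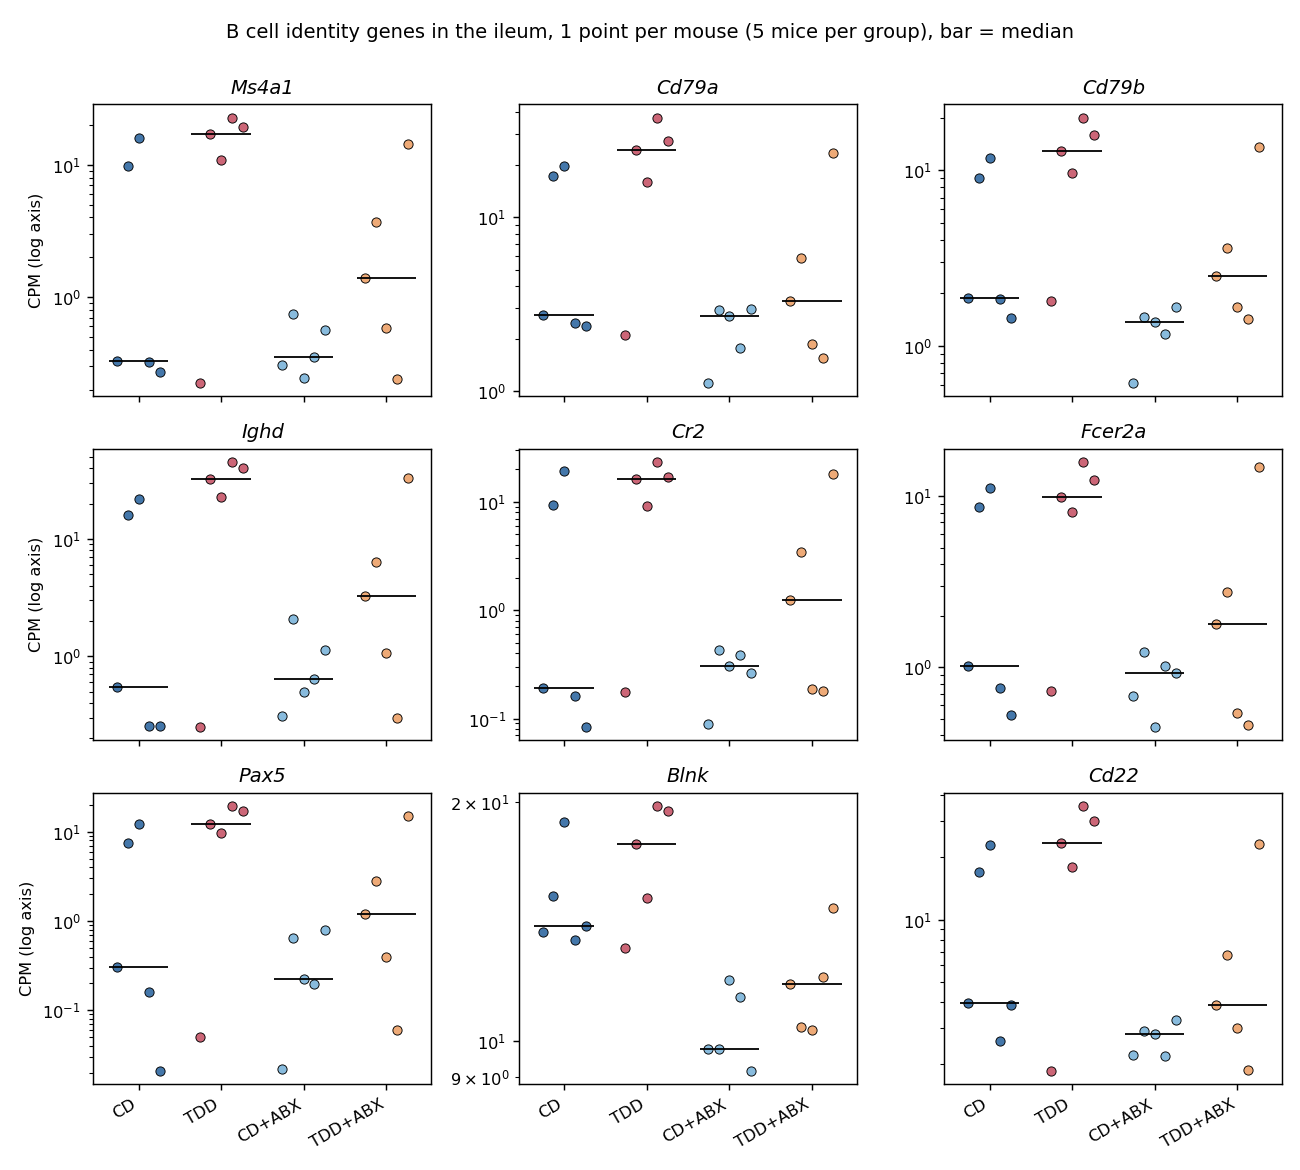
CPM of each gene (log axis, own scale per panel) by group, with 1 point per mouse placed in the order of mouse number and a bar at the median of 5 mice. In 8 panels the CD mice split into 2 high and 3 low points and the TDD mice into 4 high and 1 low, whereas the Blnk panel spans only 9.17 to 19.8 CPM.

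The spread within groups was large for the members other than Blnk. Within groups, the SD of log2 CPM ranged from 1.22 for Cd79b to 3.22 for Pax5, against 0.21 for Blnk. The CD+ABX group was the most even, with an SD of 0.26 for Cd22, where CD mice had 1.42, TDD mice 1.74 and TDD+ABX mice 1.40. Of the variance of log2 CPM over the 20 mice, 51.9% (Cd79b) to 76.9% (Pax5) lay within groups for the other 8 members, and 31.3% for Blnk.

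For levels between genes, TPM (transcripts-per-million) were used, which are corrected for transcript length. Blnk had the highest median over the 20 mice at 8.54 TPM, with a range of 5.93 to 12.9 TPM. Cd79a followed with a median of 2.86 TPM, Cd22 with 2.26, Cd79b with 2.21 and Ighd with 1.66. Fcer2a was at 0.762, Cr2 at 0.409, Ms4a1 at 0.314 and Pax5 at 0.197 TPM. Each of these 8 had a range wider than the gaps between the medians. In their highest mouse, Ighd (36.6 TPM), Cd79a (33.8 TPM), Cd79b (22.5 TPM), Cd22 (17.8 TPM) and Fcer2a (13.6 TPM) were above the highest Blnk value.

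Members were also compared by the transcripts that the estimated counts were assigned to. Cd79a had 1 annotated transcript, Pax5-201 held 96.8% of the counts of Pax5, Ighd-202 held 91.8% of those of Ighd and Cd79b-202 held 90.8% of those of Cd79b. Cd22 was divided more evenly. Cd22-203 held 51.8% of its counts in TDD, 42.7% in CD, 7.25% in CD+ABX and 31.3% in TDD+ABX mice. Cd22-210 held 14.4%, 20.5%, 44.9% and 29.5% of the counts in the same groups. Fcer2a-205 held 12.6%, 10.6%, 0.847% and 14.1% of the counts of Fcer2a, again in that order. The low shares in CD+ABX mice were thus not seen in TDD+ABX mice. CD+ABX mice had few counts to divide, 100 to 174 per mouse for Cd22 and 22 to 52 for Fcer2a. These shares are of counts summed over a group, so that high mice weigh most, and they carry no test.

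The effect of diet in SPF mice was tested with edgeR's quasi-likelihood test over all genes. Genes counted as called had an adjusted p (Benjamini-Hochberg, q) under 0.05 and changed 2-fold or more. Every member had a higher mean in TDD than in CD mice and none was called, where 1.83% of all genes were called. The mean of Ighd was 7.82 ± 10.4 CPM in CD mice and 28.3 ± 17.8 CPM in TDD mice (SD, n = 5 each), which is 1.85 ± 1.22 on the log2 scale (fold change ± standard error, q = 0.344, edgeR). That of Cd79a was 8.87 ± 8.74 and 21.3 ± 13.2 CPM (SD, n = 5 each), which is 1.26 ± 0.80 on the log2 scale (fold change ± standard error, q = 0.323, edgeR). The 8 members other than Blnk lay between 1.09 (Fcer2a) and 1.85, and Blnk was at 0.18 (standard error 0.13, q = 0.375, edgeR). A difference of at least 2-fold, whatever its p, was seen higher on TDD for 8 of 9 members and for 2.09% of all genes. The median of the 9 was 1.21, against 0.01 over all genes. At an unadjusted p under 0.05, 0 members passed by edgeR, DESeq2, limma-voom or limma on log2(TPM + 1), where 28.4% of all genes passed by edgeR. Without CD mouse 3, 3 members (Cd79b, Blnk and Cd22) passed that limit and the log2 fold changes rose to 2.72 for Ighd and 2.41 for Cr2, and without TDD mouse 1, 2 members (Cd79b and Blnk) passed. None was called in either fit. With all mice, for Ighd, 2 standard errors on either side spanned log2 fold changes from -0.58 to 4.28, so that values from a small decrease to a large increase lay within this error.

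In ABX-treated mice, all 9 members again had the higher mean on TDD and none was called, where 0.307% of all genes were called. Cr2 was at 0.296 ± 0.134 CPM in CD+ABX mice and at 4.601 ± 7.59 CPM in TDD+ABX mice (SD, n = 5 each), which is 3.94 ± 1.55 on the log2 scale (fold change ± standard error, q = 0.232, edgeR). Blnk was at 10.4 ± 1.18 and 11.9 ± 1.77 CPM (SD, n = 5 each), a log2 difference of 0.19 (standard error 0.13 and q = 0.525, edgeR). At an unadjusted p under 0.05, 6 members passed, all higher on TDD, where 7.14% of all genes were higher at that limit. Because the 8 members other than Blnk moved together from mouse to mouse, they are not separate observations. At least 2-fold higher, whatever the p, were 8 of 9 members and 1.36% of all genes. Without TDD+ABX mouse 5, 0 members had an unadjusted p under 0.05, and the log2 fold changes fell to 2.09 for Cr2, 1.75 for Ms4a1, 0.44 for Cd79a and 0.10 for Blnk. The number at that limit also fell to 1 without CD+ABX mouse 1, 2 without CD+ABX mouse 3, 3 without CD+ABX mouse 4 and 4 without CD+ABX mouse 5. By limma-voom, 0 members had an unadjusted p under 0.05 with all mice, and by DESeq2 8 did, with none called.

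Antibiotics on control diet went with lower means of all 9 members. None was called by edgeR, where 2.25% of all genes were called. The log2 fold changes ran from -4.30 for Cr2 (standard error 1.56, q = 0.0792, edgeR) through -3.60 for Ms4a1 (standard error 1.33, q = 0.0831, edgeR) to -1.91 for Cd22 (standard error 0.77, q = 0.113, edgeR) and -0.53 for Blnk. All 9 had an unadjusted p under 0.05, where 14.5% of all genes were lower at that limit. With DESeq2, 3 members were called: Cr2 at -4.28 (q = 0.00931), Ms4a1 at -3.57 (q = 0.0153) and Cd79b at -2.03 (q = 0.0322). By DESeq2, 2.49% of all genes were called. At least 2-fold lower, whatever the p, were 8 of 9 members and 2.99% of all genes. Without TDD+ABX mouse 5, which is in neither group but shares the estimate of the spread, Cd79b was called by edgeR at -2.04 (q = 0.0462), where 2.28% of all genes were. By limma-voom, 0 members were called and 1 had an unadjusted p under 0.05.

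The CD mice that set these differences were mice 2 and 3. For Cr2, CD mice 1, 4 and 5 were at 0.0842 to 0.193 CPM and overlapped the CD+ABX mice, at 0.0882 to 0.432 CPM. Without CD mouse 3, only 1 member had an unadjusted p under 0.05, and the log2 fold change was -3.05 for Cr2, -2.60 for Ms4a1 and -1.35 for Cd22. Without CD mouse 2, 4 members had an unadjusted p under 0.05, and without CD+ABX mouse 1 or CD+ABX mouse 4, 5 members, against 6 without CD+ABX mouse 3.

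Blnk was the exception in this comparison, with the smallest change and the smallest error. It was at 15.04 ± 2.25 CPM in CD mice and 10.4 ± 1.18 CPM in CD+ABX mice (SD, n = 5 each), which is -0.53 ± 0.13 on the log2 scale (fold change ± standard error, q = 0.00975, edgeR), under the 2-fold limit. Every CD mouse lay above every CD+ABX mouse. Over all genes, 9.74% were separated in this way and 12.6% had q under 0.05, so that the separation of 1 of 9 members is near the background. The q of Blnk stayed between 0.00519 and 0.0335 (edgeR) when each of the 20 mice was left out in turn.

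Antibiotics on the tryptophan-deficient diet also went with lower means of all 9 members, and none was called, where 1.63% of all genes were called. Ms4a1 was at 14.0 ± 8.85 CPM in TDD mice and 4.08 ± 5.97 CPM in TDD+ABX mice (SD, n = 5 each), which is -1.79 ± 1.14 on the log2 scale (fold change ± standard error, q = 0.305, edgeR). The 8 members other than Blnk lay between -1.79 and -1.22, all at least 2-fold lower, as were 3.13% of all genes. Blnk was lower as well, with a log2 difference of -0.53 (standard error 0.13 and q = 0.0106, edgeR), where 15.4% of all genes had q under 0.05. Its groups overlapped, since TDD+ABX mouse 5, at 14.7 CPM, lay above TDD mouse 1, at 13.1 CPM. At an unadjusted p under 0.05, 1 member (Blnk) passed by edgeR, 3 by DESeq2 and 4 by limma-voom, where 30.5% of all genes passed by edgeR. Without TDD mouse 1, 4 members passed by edgeR and none was called. Without TDD+ABX mouse 5, 3 members were called, namely Cd79a at -2.75 (q = 0.0257), Cd79b at -2.37 (q = 0.0259) and Cd22 at -2.47 (q = 0.0274), and all 9 had an unadjusted p under 0.05 (edgeR). In that fit, 2.58% of all genes were called.

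The effect of diet was compared between SPF and ABX-treated mice as an interaction, and no member was called, where 0.0245% of all genes were called. The fitted differences ran from 0.01 for Blnk (standard error 0.18, q = 0.995, edgeR) and 0.37 for Cd79a (standard error 1.14, q = 0.958, edgeR) to 2.77 for Cr2 (standard error 1.96, q = 0.744, edgeR). At an unadjusted p under 0.05, 0 members passed by edgeR, DESeq2 or limma-voom, where 8.87% of all genes passed by edgeR. The sign was not fixed. It was negative by limma-voom for the 8 members other than Blnk, with -0.50 for Ms4a1 and -0.74 for Cr2. The comparisons above share control groups with each other, so that their values are given side by side and not as independent results.

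**Figure D3:**
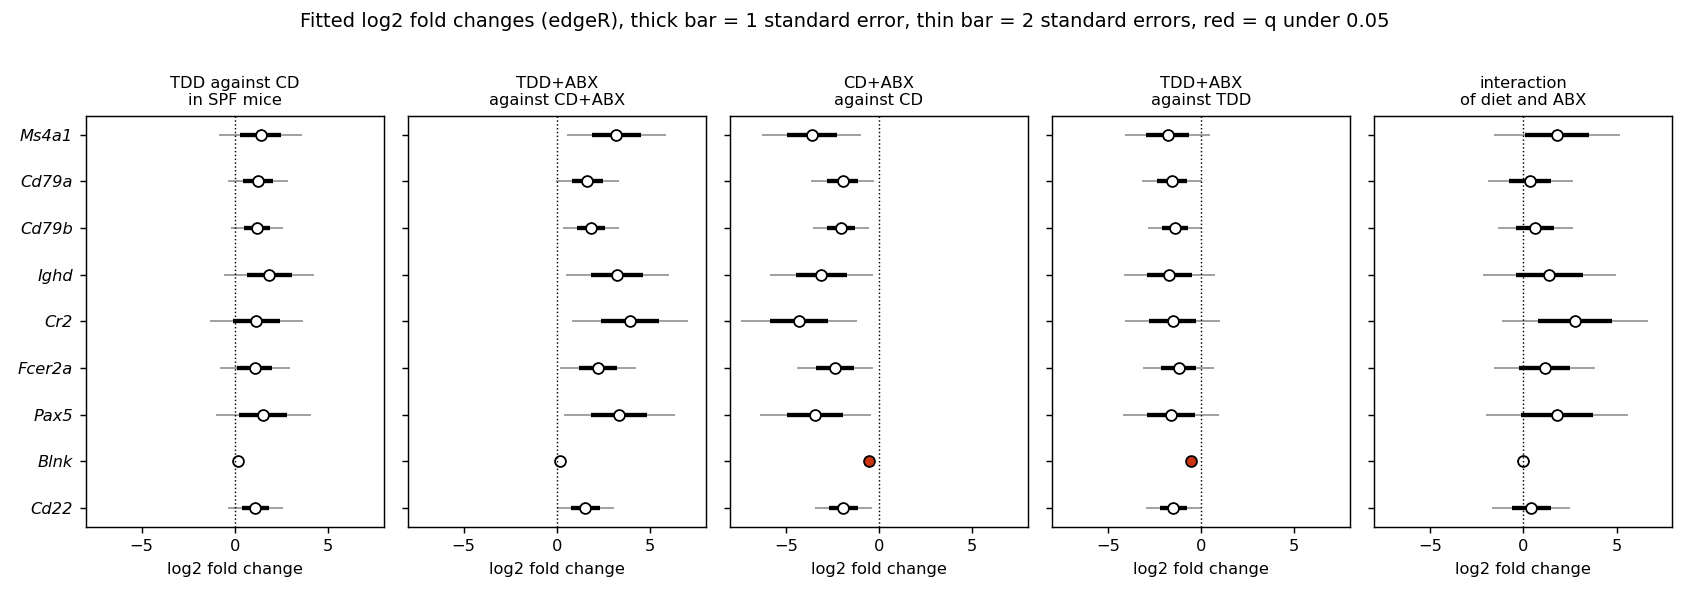
Fitted log2 fold change of each gene (edgeR) in the 4 comparisons and the interaction, with a thick bar for 1 standard error and a thin bar for 2, and red points at q under 0.05. The 2 red points are Blnk at -0.53 in both comparisons with ABX, and the points of the other 8 genes have bars several times longer.

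The genes whose levels followed the members most closely were ranked by Pearson correlation with the mean standardized level of the 9, over 20 mice and after subtraction of group means. Among the 10 highest were Fcmr (0.99), Cxcr5, H2-Eb2, Blk, Cacna1i, H2-Ob, Tnfrsf13c, Cnr2 and Fcrl1 (0.98). Cxcr5 is the chemokine receptor that leads B cells to follicles, Blk is a kinase of the B cell receptor and Tnfrsf13c the receptor for BAFF. Each of the 10 had the same 7 mice on top. Spearman correlations were 0.94 to 0.99. Without TDD mouse 1 and TDD+ABX mouse 5, which lay farthest from the median, Pearson correlations were 0.97 to 0.99. All values come from the same 20 libraries, and the mice fell into a high and a low range with few between, so that the correlations largely record which mice were high. Of the 16297 genes outside the members, 108 were above 0.9. Among the members, Blnk had a correlation of 0.74 with the mean of the others, and the other 8 had 0.98 to 0.99.

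Other genes of B cells and of the tissue around them were grouped in lists, and the same measure was taken for each. The median correlation was 0.97 for 11 genes of the follicular B cell surface and antigen presentation, 0.87 for 20 genes of receptor signalling and co-receptors and 0.84 for 8 B lineage transcription factors. It was 0.94 for 7 genes of lymphoid follicle stroma and organizers, 0.78 for 6 genes of the epithelium over follicles and its M cells and 0.67 for 6 germinal centre genes. For 11 plasma cell genes it was 0.33 (range -0.18 to 0.92), with Jchain at 0.65, Igha at 0.58, Sdc1 at -0.18 and Xbp1 at -0.18. For 12 T cell genes it was 0.28 (range -0.27 to 0.66) and for 8 macrophage and dendritic cell genes 0.22 (range 0.069 to 0.85). It was 0.56 for 3 endothelial, 0.16 for 6 smooth muscle, -0.10 for 3 fat and -0.33 for 8 ileal epithelial genes.

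**Figure D4:**
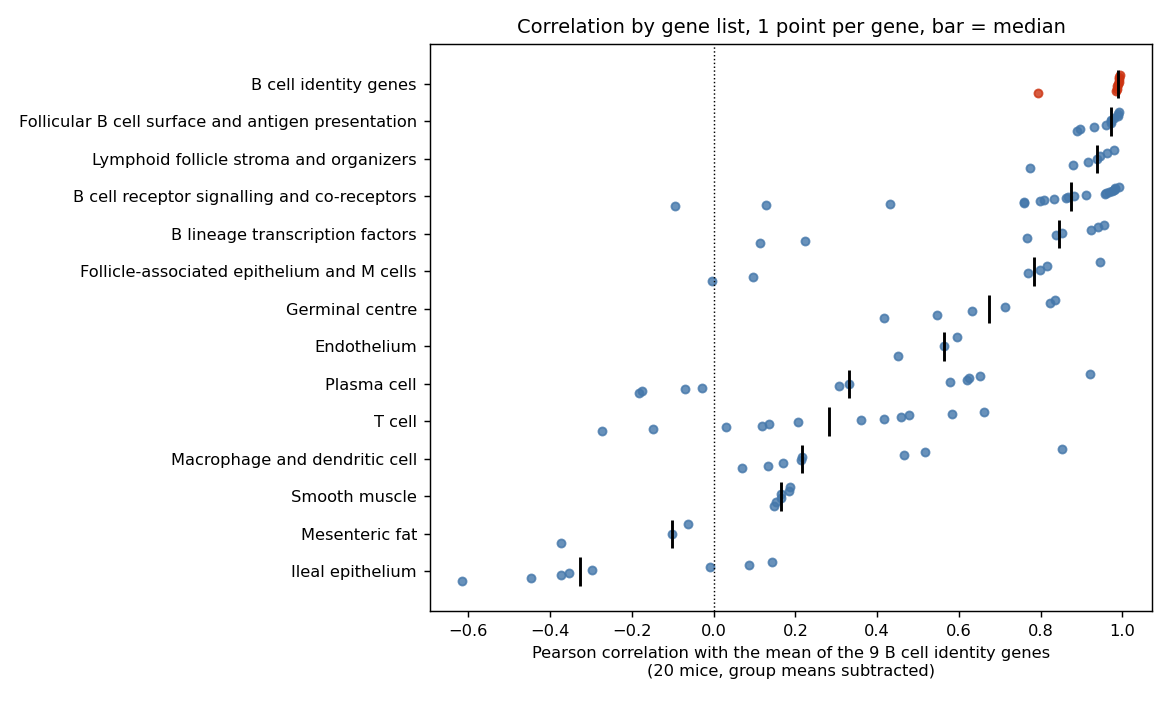
Pearson correlation of each gene with the mean level of the 9 B cell identity genes over 20 mice, group means subtracted, with 1 point per gene, 1 row per list and a bar at each list's median. Most follicular B cell and follicle stroma genes lie with the members near 1. T cell, macrophage, muscle, fat and epithelial genes lie lower, apart from Lyz2 of the macrophage list at 0.85. The red point left of the other members is Blnk, and each member is itself part of the mean.

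Genes of follicle stroma and organizers, some of them also made by lymphocytes, were high in the same mice. Cxcl13, the chemokine that draws B cells into follicles, was at 1.13, 7.51, 8.86, 1.22 and 1.64 CPM in CD mice, at 0.853, 11.8, 6.88, 12.7 and 11.2 CPM in TDD mice, at 0.942 to 1.27 CPM in CD+ABX mice and at 1.16, 2.78, 0.930, 0.836 and 8.50 CPM in TDD+ABX mice. The 7 mice high for the members were the 7 highest for 6 of the 7 follicle genes, namely Cxcl13, Lta, Ltb, Ccl19, Glycam1 and Madcam1, and for all 11 follicular B cell surface genes. Of these 6, Lta and Ltb encode lymphotoxins, which B cells and other lymphocytes make. Of the 6 genes of the epithelium over follicles and its M cells, only Sox8 and Ccl20 had the same 7 mice on top, and Ccl9 and Pglyrp1 had correlations of 0.096 and -0.0052 with the members. The summed level of the follicle list was 33.8 to 69.2 CPM in CD, 21.5 to 101 CPM in TDD, 26.5 to 45.0 CPM in CD+ABX and 21.7 to 71.3 CPM in TDD+ABX mice. Glycam1, chosen after its values were seen as a gene of the high endothelial venules of lymphoid tissue, was listed at 0 in 9 of the 20 mice, none of them among the 7. How much follicle each piece of ileum held was not measured, and its part in the group differences was not tested.

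The other B cell lists were likewise uncalled by diet in SPF mice. Of the receptor signalling genes, 0 of 20 were called in either direction, with the widely expressed Cd81 at a log2 fold change of -0.14 (q = 0.162, edgeR) and Cd72, an inhibitory receptor of B cells, at 0.37 (q = 0.366). Of the transcription factors, 0 of 8 were called, with Ebf1 at 0.86 (q = 0.0606) and Pou2af1 at 0.58 (q = 0.271). Of these 8, 1 had q under 0.05, namely Bach2 at 0.36 (q = 0.0332, edgeR), under the 2-fold limit and named after its value was seen. Over all 16306 genes, 2342 had q under 0.05 in this comparison. Of the follicular surface genes, 0 of 11 were called, with Ighm, the heavy chain of IgM, at 1.13 (q = 0.226) and Cxcr5 at 1.45 (q = 0.385). With ABX the diet called 0 genes of these 3 lists. ABX on control diet called 2 of 20 (Fcrl1 and Vpreb3), 1 of 8 (Ikzf3) and 1 of 11 (Tnfrsf13b), all lower. ABX on TDD called 1 (Btk), 4 (Ebf1, Ikzf3, Pou2af1 and Pou2f2) and 2 (Ighm and Tnfrsf13b), all lower. Of the follicle list, 1 of 7 was called (Glycam1), lower with ABX on control diet, and 0 in the other comparisons. Glycam1 was at 0 CPM in CD mice 1, 4 and 5 and at 0.907 and 1.62 CPM in CD mice 2 and 3. It reached 0.5 CPM only in mice that were high for the members, and so passed the filter through them. Vpreb3, at no more than 1.95 CPM in any mouse, was at 0.110 to 0.138 CPM in CD mice 1, 4 and 5 and at 0.977 and 1.58 CPM in CD mice 2 and 3. Genes in brackets here and below were named after their values were seen. Cxcl13 and Lta of the follicle list had log2 fold changes of 1.09 (q = 0.350) and 1.32 (q = 0.263) by diet in SPF mice (edgeR).

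Germinal centre genes did not share a direction. In SPF mice the diet called 0 of 6, with Bcl6 at 0.01 (q = 0.985) and S1pr2, a receptor that holds B cells in germinal centres, at -0.30 (q = 0.207, edgeR). With ABX on control diet, 1 was called lower, Gcsam, at -3.21 (q = 0.00607, edgeR) and at no more than 2.11 CPM in any mouse, while Bcl6, which is not limited to germinal centres, was higher by 0.49 (q = 0.0102) and Rgs13 by 0.90 (q = 0.00686), both under the 2-fold limit. In CD+ABX against CD, 4 of the 6 genes had negative log2 fold changes. Which cells of the ileum held the RNA of Bcl6 and Rgs13 was not measured. No gene of the list was called with ABX on TDD, where Rgs13 was higher by 0.79 (q = 0.0154, edgeR). Of the genes of the follicle-associated epithelium and M cells, 0 of 6 were called by diet in either setting, with Gp2 at 0.39 (q = 0.671) and Sox8 at 0.82 (q = 0.267) in SPF mice. With ABX, 1 of 6 was called lower on control diet, namely Gp2 at -1.90 (q = 0.0300), and 0 on TDD.

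Of the 11 plasma cell genes, with a median correlation of 0.33, only Irf4 had exactly the mice on top that the members had. Jchain, the joining chain of secreted IgA, was at 298, 421, 334, 241 and 222 CPM in CD mice and at 290, 631, 501, 502 and 476 CPM in TDD mice, a log2 fold change of 0.66 (q = 0.0270, edgeR, under the 2-fold limit). TDD mouse 1, the mouse low for all 9 members, was the lowest TDD mouse here as well. Igha had a log2 fold change of 0.55 (q = 0.0718). Jchain and Igha were highest in TDD mice 2 to 5, followed by CD mice 2 and 3, all of them high for the members. Of the 11 plasma cell genes, 0 were called by diet in SPF mice, where 4 had q under 0.05, all higher, and 0 with ABX. Over all 16306 genes, 2342 had q under 0.05 by diet in SPF mice, in either direction. ABX on TDD called 4 (Igha, Irf4, Jchain and Mzb1), all lower, and ABX on control diet 1 (Irf4), also lower. TDD+ABX mouse 5 was high for the members but at 216 CPM of Jchain, within the 194 to 276 CPM of its group.

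Markers of other cells gave the following counts. Of 12 T cell genes, 1 was called by diet in SPF mice, Cd8b1 at -2.33 (q = 0.00838), 0 with ABX, 10 by ABX on control diet and 4 by ABX on TDD (Cd28, Cd5, Trac and Zap70), all lower. The summed T cell level was 58.9 to 158 CPM in CD, 39.9 to 74.0 CPM in TDD, 26.4 to 34.8 CPM in CD+ABX and 25.9 to 51.3 CPM in TDD+ABX mice. Of 8 macrophage and dendritic cell genes, 0 were called in any comparison, with Csf1r at -0.58 (q = 0.00573) and Adgre1 at -0.77 (q = 0.00179) by diet in SPF mice, both under the 2-fold limit. All 8 had negative log2 fold changes in these 4 comparisons, and q was under 0.05 for 5 by diet in SPF mice, 0 by diet with ABX, 6 by ABX on control diet and 3 by ABX on TDD. Over all 16306 genes, q was under 0.05 for 2342, 268, 2060 and 2505 in the same order, in either direction. Their summed level was 234 to 309 CPM in CD, 127 to 233 CPM in TDD, 162 to 187 CPM in CD+ABX and 128 to 167 CPM in TDD+ABX mice, and its part in the members' values was not tested. Of 8 ileal epithelial genes, 3 were called higher with ABX on either diet (Fabp2, Fabp6 and Slc10a2), and 0 by diet. No smooth muscle, endothelial or fat gene was called in any of these 4 comparisons.

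**Figure D5:**
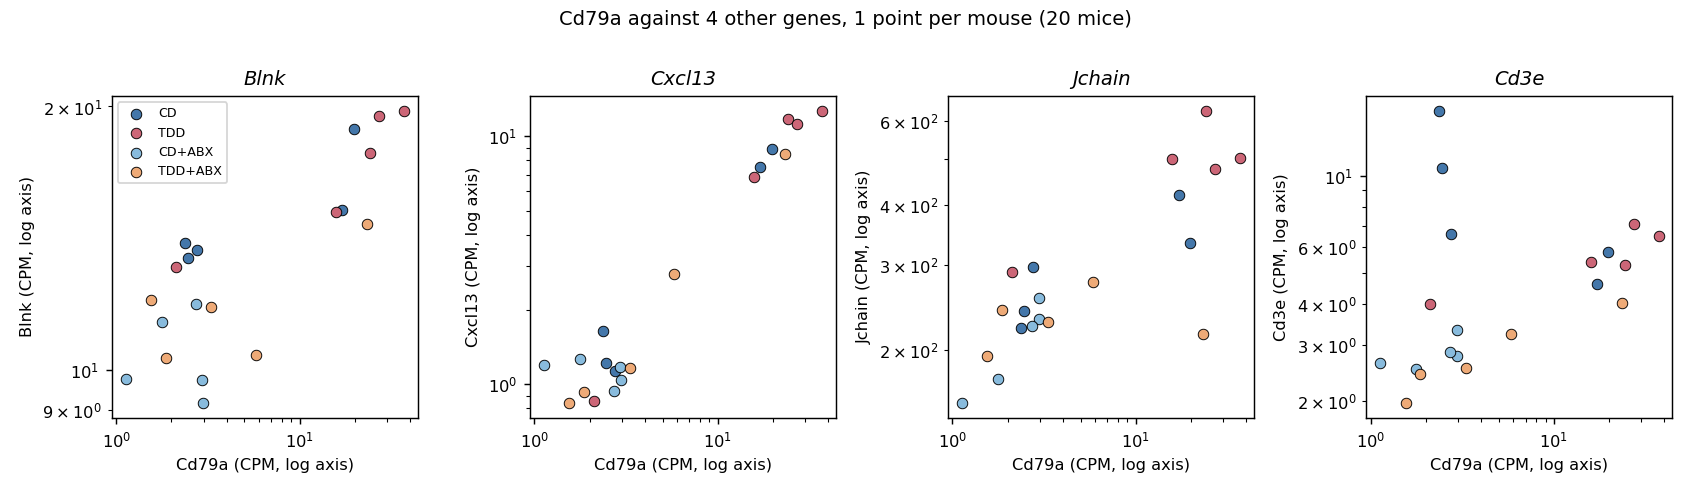
Cd79a (x axis, CPM, log) against Blnk, Cxcl13, Jchain and Cd3e, a chain of the T cell receptor complex (y axes, CPM, log), with 1 point per mouse coloured by group. Cxcl13 is high in the same 7 mice as Cd79a, Blnk moves over a 2.16-fold range, and the 2 highest Cd3e values are in CD mice with low Cd79a.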

How the data were processed

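Poly-A RNA was sequenced from the ileum of 20 mice. Per the labels, the authors quantified them with kallisto 0.44.0 (builds named: GRCm38, mm10). The authors deposited estimated counts per gene, not normalized and not always whole, and per mouse a table of transcripts with estimated counts and TPM. Columns of the gene table were matched to mice through the names of the mouse-level files. Here counts were rounded and scaled by TMM, and a gene was kept where 1 or more mice reached 0.5 CPM. The 4 groups were fitted in 1 model with edgeR 4.0.16 (R 4.3.3), quasi-likelihood test, robust spread, Benjamini-Hochberg adjustment over all 16306 genes. The 0.5 CPM and the limits of q under 0.05 and at least 2-fold follow the study's methods, which give neither the number of mice nor the test. The standard error was taken from the fold change and the F statistic. TPM were summed per gene, and 98.4% of transcripts matched GENCODE M21. Scripts were tested on simulated data.

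All 9 members are described in each comparison. Of the other lists, counts are given, with up to 4 genes called by diet in SPF mice or, where none was called, the first 2 as listed, and the 10 genes most correlated with the members. Members and lists were chosen with earlier results of these data known. Alternatives were RLE and upper-quartile scaling, DESeq2 1.42.0, limma-voom and limma 3.58.1 on log2(TPM + 1) and log2(TPM + 0.1), a filter in 5 mice or none, the compared groups alone, the replicate number as a block, each mouse left out, no fold limit and, chosen after seeing the data, no robust spread. No p-value is adjusted over the members alone. Some genes of the lists are not reported here and were left out of the list counts.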

Additional observations from a re-analysis of the deposited data

Results flagged for a closer look

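Of 36 sets of 5 mice (9 members in 4 groups), 8 had a mouse far from the other 4. This was judged by Dixon's ratio of gap to range (critical value 0.71 for 5 mice), taken on CPM and not on the log2 scale. Chance flags about 1 in 20 if values are normally distributed. Pax5 spanned 248-fold among TDD+ABX mice, so that rate need not hold here. All 8 flags were of TDD+ABX mouse 5 at the top of its group. It was at 14.5 CPM for Ms4a1, 23.4 CPM for Cd79a, 13.6 CPM for Cd79b, 32.8 CPM for Ighd, 18.0 CPM for Cr2, 14.8 CPM for Fcer2a, 14.8 CPM for Pax5 and 23.3 CPM for Cd22. The nearest mouse, TDD+ABX mouse 2, was at 3.70, 5.81, 3.60, 6.41, 3.42, 2.74, 2.80 and 6.73 CPM for the same genes. The member without a flag was Blnk. Since the 8 genes move together, the 8 flags describe 1 mouse. In the CD and TDD groups, where 2 or 4 mice were high, no single mouse stood apart by this ratio.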

How the results depend on the processing

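None of the 9 members was called in any comparison under the settings tried, apart from the following. In CD+ABX against CD, 3 were called with DESeq2 and 1 (Blnk) without the fold change limit. In TDD+ABX against TDD, 1 (Blnk) was called without that limit. With each mouse left out in turn, 0 to 1 were called in CD+ABX against CD and 0 to 3 in TDD+ABX against TDD, the highest of both without TDD+ABX mouse 5. All 36 of 1386 member values that changed direction were in the interaction. By limma-voom these were Ms4a1 -0.50, Cd79a -0.55, Cd79b -0.093, Ighd -1.07, Cr2 -0.74, Fcer2a -0.58, Pax5 -0.82 and Cd22 -0.26. With log2(TPM + 1) they were Ms4a1 -0.39, Cd79a -0.41, Cd79b -0.11, Ighd -0.74, Cr2 -0.34, Fcer2a -0.26, Pax5 -0.22 and Cd22 -0.047. With log2(TPM + 0.1) they were Ms4a1 -0.34, Cd79a -0.39, Ighd -0.94, Cr2 -0.64, Fcer2a -0.37 and Pax5 -0.43. With single mice left out, the interaction ranged from -0.81 to 0.66 for Cd79a, -0.33 to 0.90 for Cd79b, -0.26 to 1.89 for Ighd, -0.39 to 1.44 for Fcer2a, -0.088 to 0.072 for Blnk and -0.56 to 0.68 for Cd22. The cause was not tested. The compared groups fitted alone give no value for the interaction.

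Mice with the same replicate number did not deviate together (correlations of -0.36 to 0.25), so the numbers were not taken to pair them. With the replicate number as a block, 0 members were called in all comparisons, and 0, 5, 7, 2 and 0 had an unadjusted p under 0.05, in the order of the report. Shares of all genes at that limit are given only for edgeR with all mice and no block. Counts of members at that limit in every other fit have no such share beside them and cannot be set against a background. Low counts limit Pax5 and Cr2, which had 1 to 20 counts in many mice, and also Ms4a1 and Ighd, whose lowest mice had 9 and 10.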
